A study of Mus musculus with 6 samples.

Results

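The genes described here build the microvilli of the enterocyte, the absorptive cell of the gut. They are 10 named genes of the 19938 measured. Vil1, Espn, Eps8 and Pls1 bundle or cap actin, Myo1a is a motor, Ezr and Pdzk1 are linkers, and Cdhr2, Cdhr5 and Tmigd1 encode adhesion proteins at the cell surface. The members were proposed with earlier results of the same comparison in view, the high level of Tmigd1 in the knockout among them. Their differences between the groups are therefore given as a description and not as a test. All 10 had a single probe set annotated to that gene alone, and all 10 entered the fit, in which no filter on low levels was used.

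RNA of isolated epithelial cells from the mouse small intestine at E18.5 (embryonic day, shortly before birth) was hybridised to 6 Affymetrix Mouse Gene 1.0 arrays. Per the labels, 3 arrays are controls (control 1, 2 and 3) and 3 are Gata4Gata6 conditional double knockouts (cKO 1, 2 and 3). No strain, control genotype, Cre driver or deleted exon is given in the sources used here. Whether each array stands for its own animal is not said either, so a p-value here covers the spread among these arrays, part or all of which may be technical.

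The microvillus is a finger of plasma membrane around a core of parallel actin filaments. Bundling proteins hold the core together, myosins and ezrin tie it to the membrane, and PDZ-domain scaffolds hold transporters at the surface. The protocadherins CDHR2 and CDHR5 form links between the tips of neighbouring microvilli and are anchored inside the cell by a complex of harmonin (Ush1c), ANKS4B and myosin-7B. GATA4 and GATA6 are DNA-binding regulators of endoderm-derived organs. GATA, CDX and HNF4 factors are known to bind near enterocyte genes, which is the reason for showing promoter sequence here.

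Promoter windows, from 250 bases before to 50 bases after a gene start, were taken from RefSeq (GRCm38.p6). Such windows were found for 9 of the 10 members, 13 windows in all, and Eps8 had none in that table. The windows below are those of Tmigd1, the member with the largest difference, of Pls1, the member with the largest difference in the other direction, and of Vil1, Pdzk1 and Cdhr5, which carried further motif matches. All read 5′ to 3′ along the gene's strand. Capitals mark a match on either strand to a GATA word (AGATAA, with T also allowed as its first base and G as its last), to the CDX word TTTATG, or to 1 of 3 HNF4 words (CAAAGTCCA, CAAAGTTCA and CAAAGGTCA). The GATA, CDX and HNF4 matches do not overlap one another in these windows.
Tmigd1, first start, chr11:76890870-76891169, plus strand: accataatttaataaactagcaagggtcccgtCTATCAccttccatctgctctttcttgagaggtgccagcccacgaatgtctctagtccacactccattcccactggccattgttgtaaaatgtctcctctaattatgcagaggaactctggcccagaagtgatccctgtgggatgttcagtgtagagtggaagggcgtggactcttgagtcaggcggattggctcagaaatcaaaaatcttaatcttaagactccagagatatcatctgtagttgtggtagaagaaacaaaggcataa
Tmigd1, second start, chr11:76901909-76902208, plus strand: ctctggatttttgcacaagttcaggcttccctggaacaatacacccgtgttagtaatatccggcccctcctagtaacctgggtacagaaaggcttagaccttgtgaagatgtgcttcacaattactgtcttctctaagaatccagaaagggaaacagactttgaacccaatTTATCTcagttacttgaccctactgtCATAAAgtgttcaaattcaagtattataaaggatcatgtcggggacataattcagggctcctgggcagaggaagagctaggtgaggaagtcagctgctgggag
Vil1, chr1:74409134-74409433, plus strand: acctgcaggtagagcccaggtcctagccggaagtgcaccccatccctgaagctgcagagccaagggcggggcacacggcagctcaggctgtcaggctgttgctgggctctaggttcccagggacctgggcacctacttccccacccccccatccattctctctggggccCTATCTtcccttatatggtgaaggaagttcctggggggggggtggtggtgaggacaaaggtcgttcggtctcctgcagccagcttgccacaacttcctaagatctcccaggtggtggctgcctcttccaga
Pls1, chr9:95845230-95845529, minus strand: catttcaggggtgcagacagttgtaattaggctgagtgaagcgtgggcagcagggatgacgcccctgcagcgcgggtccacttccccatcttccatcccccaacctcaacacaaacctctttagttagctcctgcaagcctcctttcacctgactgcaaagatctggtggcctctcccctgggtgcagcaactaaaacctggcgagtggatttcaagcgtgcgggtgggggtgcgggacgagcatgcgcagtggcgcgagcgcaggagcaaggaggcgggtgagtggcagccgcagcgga
Pdzk1, first start, chr3:96829815-96830114, plus strand: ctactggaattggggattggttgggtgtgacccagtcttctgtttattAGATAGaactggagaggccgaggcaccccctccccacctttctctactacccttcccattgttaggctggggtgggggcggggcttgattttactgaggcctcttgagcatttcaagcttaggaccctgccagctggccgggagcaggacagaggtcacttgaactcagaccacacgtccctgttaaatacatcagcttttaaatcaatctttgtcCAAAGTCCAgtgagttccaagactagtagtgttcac
Cdhr5, chr7:141276737-141277036, minus strand: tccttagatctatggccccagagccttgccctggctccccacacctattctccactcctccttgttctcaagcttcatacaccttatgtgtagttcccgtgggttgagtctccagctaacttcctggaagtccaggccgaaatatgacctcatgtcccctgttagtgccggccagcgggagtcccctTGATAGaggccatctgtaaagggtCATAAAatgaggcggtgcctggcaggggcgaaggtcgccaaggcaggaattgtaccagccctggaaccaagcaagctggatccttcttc

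A GATA word lay in 6 of the 13 member windows, those of Tmigd1 (both starts), Vil1, Pdzk1 (first start only), Cdhr5 and Myo1a. It lay in 29.8% of all 32851 windows in the table. The CDX word lay in 3 member windows (Tmigd1, Cdhr5 and the third Espn window) and in 11.9% of all windows. An HNF4 word lay in 1 member window, that of the first Pdzk1 start, and in 1.33% of all windows. The Pls1 window held no match to any of these words. These are matches of letters and not measured sites, and with 13 windows, several of them of the same gene, the shares of members and of all windows are not compared further.

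Levels are given on the log2 scale, with array medians between 7.73 and 7.84. Gata4 and Gata6, the targeted genes, were higher on the arrays labelled cKO, by 0.47 ± 0.075 and 0.45 ± 0.065 (log2 difference ± SE, limma adjusted p of 0.0101 and 0.0067). A probe set of this design sums signal along a gene, including exons outside a deletion, so the direction of each difference is that of the labels, which these genes do not check. Of 8 epithelial markers the broad ones Epcam, Krt8 and Krt19 rose and the enterocyte genes Fabp2 and Alpi fell on the arrays labelled cKO. Cdh1 and Krt18 were also higher there, with no overlap (limma adjusted p of 0.143 and 0.0671). The difference was −2.73 for Fabp2 and −0.53 for Alpi, and from 0.077 (Cldn7) to 0.61 (Krt19) for the rest. Averaged over the 8, the level was 12.47 to 12.53 on the controls and 12.17 to 12.41 on the arrays labelled cKO. Fabp2 weighs most in that lower average, which is thus no measure of the amount of epithelium. cKO 2 stood apart in markers of other cells. Its hepatocyte list (7 of 8 markers measured) averaged 13.16. On cKO 1 and cKO 3 it averaged 8.98 and 9.11, and on the controls 8.83 to 11.83. Its erythroid list (5 of 8 measured) averaged 10.83 against at most 8.74 elsewhere, and its immune list (8 of 8) 9.49 against at most 8.13. Goblet cell markers were higher on the arrays labelled cKO (5 of 5 measured rose, 11.88 to 12.11 against 10.91 to 11.16), and enteroendocrine markers were lower (3 of 6 fell, 8.3 to 8.58 against 8.88 to 9.05). Rose and fell mean here a limma adjusted p under 0.05, passed by 5.52% of all genes as rises and 7.42% as falls. No marker of these lists was at 0 on any array. In bulk RNA, fewer cells of a type and less RNA per cell cannot be told apart, and the part of these markers in the results below was not tested, except where a fit with them is given.

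Tmigd1 was far higher on the arrays labelled cKO, and the rest of the members differed by much less than it did. Of the other 9 members 8 were lower on average and 1, Myo1a, was higher, with differences from −0.62 to 0.37 on the log2 scale. The median difference of the 9 was −0.31, against −0.013 over all genes. In a limma fit across all genes, with an adjusted p under 0.05 (Benjamini-Hochberg) as the threshold, 4 of the 10 members passed: Tmigd1 on the higher side and Eps8, Pls1 and Ezr on the lower side. Of all genes 12.9% passed. The values of the 2 groups did not overlap for 5 of the 10 members (3 lower, 2 higher), and for 32.6% of all genes (18.3% lower, 14.3% higher). Since this contrast was in view when the members were chosen, nothing is read from these shares.

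**Figure D1:**
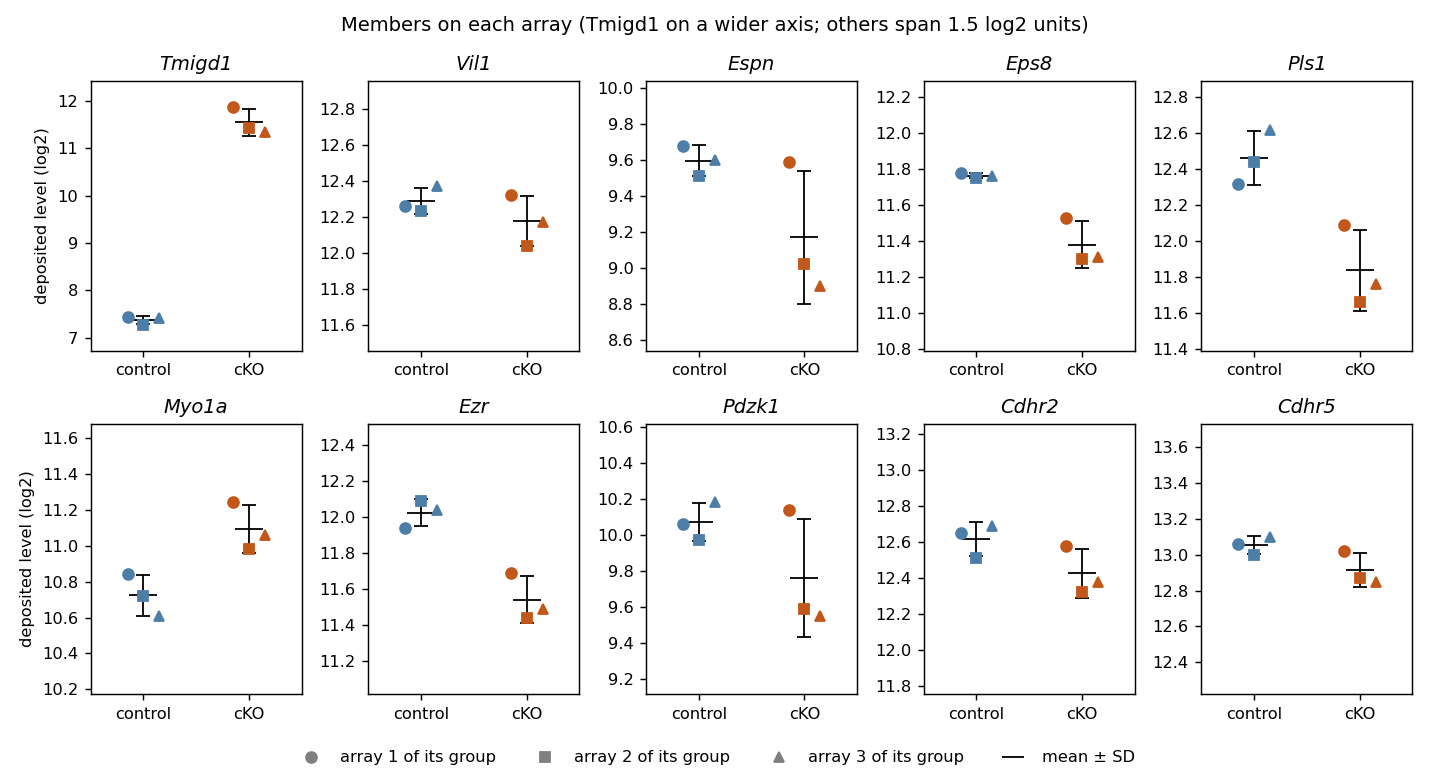
Deposited log2 level of each member on the 3 control arrays (blue) and the 3 arrays labelled cKO (orange), with mean and SD. Tmigd1 is near 7.4 on the controls and above 11.3 on the arrays labelled cKO. The other panels, each spanning 1.5 log2 units, show smaller differences than that of Tmigd1. cKO 1 (circle) is highest of its group in every panel.

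Tmigd1 encodes an immunoglobulin-domain adhesion protein of epithelial cells. Its level was 7.44, 7.28 and 7.41 on controls 1, 2 and 3 and 11.87, 11.42 and 11.35 on cKO 1, 2 and 3. The lowest array labelled cKO thus stood well above the highest control. The group means were 7.38 ± 0.085 and 11.55 ± 0.282 (SD, n = 3), a log2 difference of 4.17 ± 0.15 (18.0-fold on the deposited values). The controls lay below the median of every array, and whether they stood above background is not known. If they did not, the 18.0-fold is a lower bound. The difference was 4.01 to 4.27 with any 1 array left out, and 4.25 with control 3 and cKO 2 both left out.

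The actin bundling genes were lower on average, to differing degrees. Vil1, villin, which bundles, caps and severs actin, stood at 12.26, 12.23 and 12.37 on the controls and at 12.32, 12.04 and 12.17 on the arrays labelled cKO. Its groups overlapped, and the difference of −0.11 ± 0.096 was close to its error. It was 0 with control 3 and cKO 2 left out.

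Pls1 encodes plastin-1, also called fimbrin, a cross-linker of parallel actin filaments. It stood at 12.32, 12.44 and 12.62 on the controls and at 12.09, 11.66 and 11.76 on the arrays labelled cKO. Each array labelled cKO lay below each control, and the difference was −0.62 ± 0.14, the most negative among the members. Eps8, which caps barbed ends and bundles actin, was tight on the controls, at 11.78, 11.75 and 11.76, and lay at 11.53, 11.3 and 11.31 on the arrays labelled cKO (difference −0.38 ± 0.087). Here too the groups did not overlap. With 1 array left out, both genes passed only without cKO 1. Leaving out any other array ended both calls, and quantile normalization ended that of Eps8.

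Espn, espin, sets microvillus length by slow-exchange bundling. It stood at 9.68, 9.51 and 9.6 on the controls and at 9.59, 9.02 and 8.9 on the arrays labelled cKO. cKO 1 lay within the control range and the other arrays labelled cKO lay well below it, so the difference of −0.43 ± 0.18 carried a large error. Without cKO 1 it was −0.64.

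Myo1a, brush border myosin I, bridges the core bundle and the membrane. Among the 10 members it and Tmigd1 were the ones higher on the arrays labelled cKO. It stood at 10.84, 10.72 and 10.61 on the controls and at 11.24, 10.98 and 11.06 on the arrays labelled cKO. The groups did not overlap, and the difference was 0.37 ± 0.10. It did not pass the threshold, with all 6 arrays or with any 1 left out, though it did when the dimmest genes (lower tertile) were left out and with a trended, robust variance model.

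Of the linkers, Ezr encodes ezrin, which joins actin to membrane proteins. It stood at 11.94, 12.09 and 12.04 on the controls and at 11.69, 11.44 and 11.49 on the arrays labelled cKO, with no overlap and a difference of −0.48 ± 0.094. It no longer passed without control 2, control 3 or cKO 3. Pdzk1, a scaffold with several PDZ domains that binds apical transporters, stood at 10.06, 9.97 and 10.18 on the controls and at 10.14, 9.59 and 9.55 on the arrays labelled cKO. As for Espn, cKO 1 lay within the control range and the others below it, and the difference was −0.31 ± 0.17. Without cKO 1 it was −0.50.

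The intermicrovillar protocadherin genes differed little between the groups. Cdhr2 stood at 12.65, 12.51 and 12.69 on the controls and at 12.58, 12.32 and 12.38 on the arrays labelled cKO, a difference of −0.19 ± 0.098. Cdhr5 stood at 13.06, 13.0 and 13.1 on the controls and at 13.02, 12.87 and 12.85 on the arrays labelled cKO, a difference of −0.14 ± 0.079. In both, cKO 1 lay within the control range and the groups overlapped. The differences correspond to 1.14-fold and 1.10-fold lower levels.

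**Figure D2:**
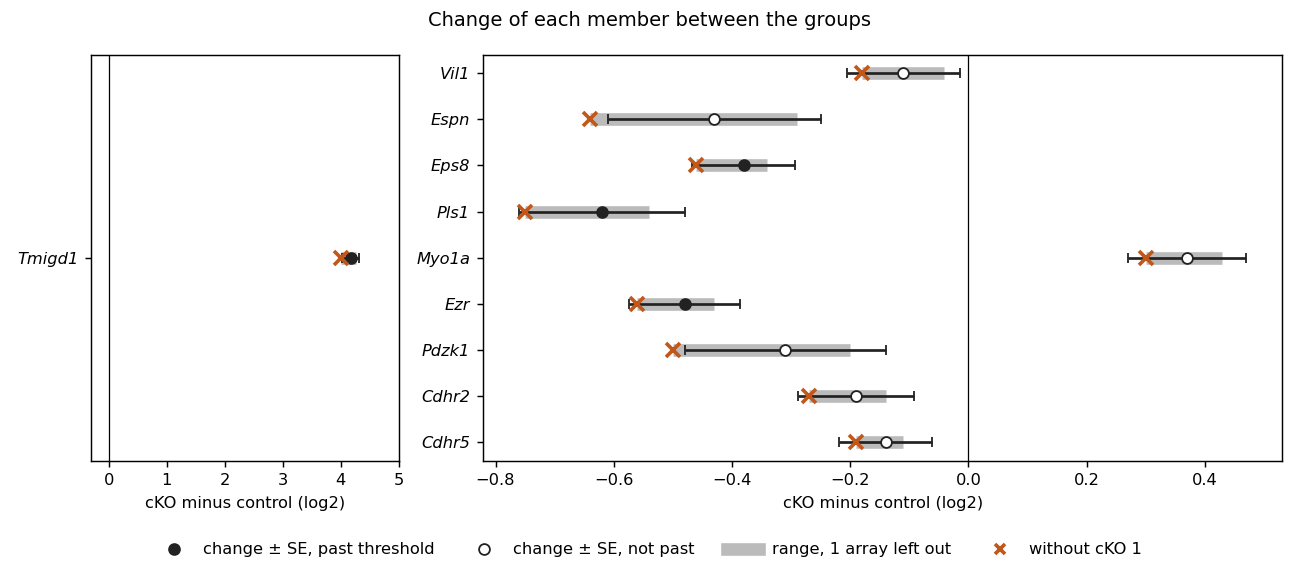
Difference between the groups for each member (arrays labelled cKO minus control, log2) with its SE, on separate axes for Tmigd1 and for the others. Grey bars span the values with 1 array left out and crosses mark those without cKO 1, which lie at the lower end of every bar, at −0.64 for Espn and −0.75 for Pls1.

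The members shared part of the order of the arrays labelled cKO. In all 10 members cKO 1 was the highest of the arrays labelled cKO, by between 0.15 (Vil1, Cdhr5) and 0.57 (Espn) over the next, whether the gene was higher or lower in that group. Over all genes cKO 1 was highest in 37.4%, and over the 51 other microvillus and apical genes described further on in 28, or 54.9%. By group of those genes, it was highest in 5 of 6 other brush border cadherin and immunoglobulin-domain genes and 3 of 4 adhesion complex scaffold genes. The same held for 3 of 4 other apical myosins, 5 of 7 apical traffic genes and 7 of 16 actin genes and regulators. It also held for 2 of 5 transcription factors and 3 of 9 linkers, PDZ scaffolds and kinases. These groups are small, and their shares are not compared further. In 8 of the 10 members cKO 2 and cKO 3 both lay below every control, as in 25 of the 51 other genes and 24.8% of all genes. In 5 of those 8 (Vil1, Espn, Pdzk1, Cdhr2 and Cdhr5) cKO 1 lay within the control range. The same held for 4 of those 25 (Calml4, Baiap2l1, Cdc42 and Ptprh). Over all genes it held for 1021 of 4952, which are 5.12% of all genes measured. For Baiap2l1 it rests on a probe set at 13.85 to 13.87 on all arrays, and on its dimmest probe set cKO 1 lay below every control. Since this order also occurred outside the members, it is not called particular to them. Among the controls, control 3 was the highest in 5 of the 10 members and in 36.2% of all genes.

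These counts describe 6 arrays. The pattern was noticed in the data, and genes expressed in the same cells are not independent of each other. The marker lists of cKO 1 were not extreme in the way those of cKO 2 were. Its hepatocyte list was at 8.98, the lowest of its group, and its epithelial list at 12.39 against 12.41 on cKO 3. Its mesenchyme and smooth muscle list (8 of 8 markers, none passing the threshold) was the highest of all arrays, at 9.39 against 9.10 and 8.52 on cKO 2 and cKO 3 and 8.15 to 8.50 on the controls. The part of these lists in the order of the arrays was not tested.

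**Figure D3:**
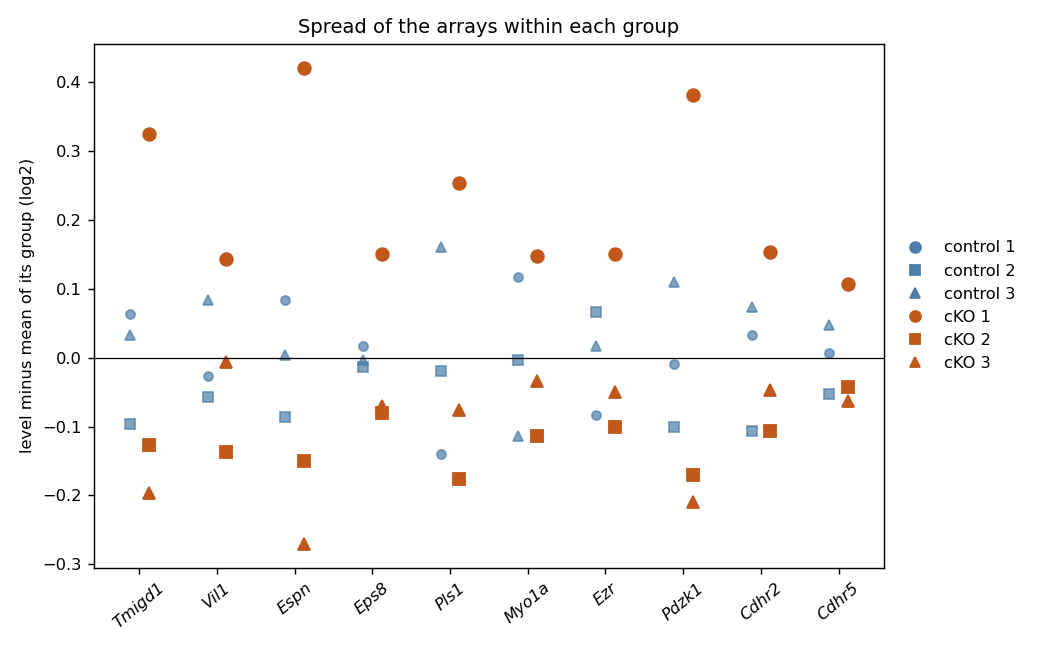
Level of each member on each array minus the mean of that array's group (log2), for the controls (blue) and the arrays labelled cKO (orange). The orange circle, cKO 1, is the top orange symbol in all 10 genes, and its distance above the group mean is largest for Espn (0.42) and Pdzk1 (0.38).

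Without cKO 1, 6 members passed the threshold in place of 4, Espn and Pdzk1 being added on the lower side. Of all genes 10.5% passed in that fit, against 12.9% with all arrays. Since cKO 1 was the highest of its group in all 10 members, leaving it out lowers each difference. Nothing is therefore read from the added calls. Without control 1 or without cKO 2 the members that passed were Tmigd1 and Ezr, with 8.64% and 11.4% of all genes. Without control 2, control 3 or cKO 3 Tmigd1 alone passed, with 7.43%, 7.59% and 7.96% of all genes, and likewise without control 3 and cKO 2 together (7.95%). When the averaged hepatocyte and erythroid level entered the fit as a covariate, 13.9% of all genes passed and so did the same 4 members as before. No member took the opposite sign under any setting tried.

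A list of other genes of the microvillus and apical domain, grouped by function, was taken from the same fit. It was made with earlier results of these data known, so its calls too are given as a description. The list gave 51 genes measured by a probe set of their own. Actg1, also listed, shares all 4 of its probe sets with Actb and was not tested. Of the 51, 18 passed the threshold in the comparison, 13 as falls and 5 as rises. Of all genes 7.42% fell and 5.52% rose under the same rule. The list's median difference was −0.01, against −0.013 over all genes, with 26 of the 51 below 0 and 25 above. The calls that stayed with each of the 6 arrays left out in turn were those of Pls3, Cobl, Ceacam1, Eps8l3 and Rab8a. The count was 5 without control 2 or without control 3, 9 without control 1 and 10 without cKO 3. It was 13 without cKO 2, 17 without cKO 1, and 8 with control 3 and cKO 2 both left out. The shares of all genes that passed in these fits are those given above. Quantile normalization ended 5 calls, those of Anks4b, Myo5b, Stx3, Igsf5 and Hnf4g (limma adjusted p of 0.0532, 0.116, 0.0786, 0.0595 and 0.0666), and centring each array on its median ended those of Myo5b, Stx3 and Hnf4g.

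The scaffold that anchors the protocadherins differed by gene. Anks4b fell by 0.62 ± 0.13 (limma adjusted p = 0.0299), from 10.41, 10.66 and 10.72 on the controls to 10.21, 9.86 and 9.87. Leaving out control 2, control 3, cKO 2 or cKO 3 raised its adjusted p (limma) above the threshold, to at most 0.107. Myo7b, the motor of the complex, had non-overlapping groups and a difference of −0.34 ± 0.10 that did not pass (limma adjusted p = 0.0824). Ush1c, the gene of harmonin, differed by 0.083 ± 0.095 and Calml4, a light chain of that motor, by −0.073 ± 0.079, both with overlapping groups. Of the 4 genes of the complex, 1 thus passed the threshold.

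Among 16 actin genes and actin regulators, 3 rose and 3 fell. Cobl, cordon-bleu, a nucleator of actin filaments in microvilli, rose by 1.16 ± 0.13 (2.24-fold, limma adjusted p = 0.00241), from 8.31, 8.24 and 8.39 to 9.74, 9.36 and 9.33. Pls3, the plastin found in many cell types, rose by 0.71 ± 0.11 (limma adjusted p = 0.00825), from 7.8, 7.54 and 7.85 to 8.48, 8.5 and 8.33. This was opposite to the difference of its relative Pls1. Lcp1, the remaining plastin gene and also a leukocyte gene, fell by 0.84 ± 0.17 (limma adjusted p = 0.0239), which no longer passed on omission of control 2, control 3, cKO 1 or cKO 3. A plastin gene thus lay on either side of no change, and levels of the 3 cannot be compared between probe sets.

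Eps8l3, a relative of Eps8, fell by 0.67 ± 0.10 (limma adjusted p = 0.00867), from 12.43, 12.39 and 12.45 to 11.89, 11.55 and 11.81. The other relatives Eps8l2 and Eps8l1 differed by −0.39 ± 0.11 and 0.04 ± 0.10 and did not pass. Clic5, whose protein works with ezrin-family linkers in actin protrusions, fell by 0.64 ± 0.12 (limma adjusted p = 0.0183), which needed each control and cKO 3 to pass. The remaining rise, of Baiap2l2, measured 0.57 ± 0.12 (limma adjusted p = 0.0256) and, of the fits with 1 array omitted, passed only in that without cKO 2. Actb, beta-actin, differed by 0.03 ± 0.066. Baiap2l1, which makes a partner of Eps8 at microvillus tips, had 3 probe sets that disagreed. The brightest, used in the fit, was at 13.85 to 13.87 on all arrays (difference −0.01), another differed by 0.02, and the dimmest by −0.34, from 11.78, 11.68 and 11.64 to 11.39, 11.3 and 11.39.

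Of 9 linker, scaffold and kinase genes 3 fell and none rose, these being scaffolds or their partner. Slc9a3r1, which encodes the ezrin-binding scaffold NHERF1 (EBP50), fell by 0.70 ± 0.12 (limma adjusted p = 0.0128), from 12.1, 12.14 and 12.21 to 11.67, 11.45 and 11.24. Every array labelled cKO lay below every control. Omitting control 2 or control 3 raised the adjusted p (limma) to at most 0.0555, above the threshold. Pdzk1ip1, a small membrane protein that binds PDZK1, fell by 0.72 ± 0.14 (limma adjusted p = 0.0219), and Pdzd3, a PDZ scaffold of the same family, by 0.50 ± 0.10 (limma adjusted p = 0.0247). Neither passed when a control or cKO 3 was omitted. Msn and Rdx, which encode moesin and radixin, the relatives of ezrin, differed by 0.63 ± 0.69 and 0.047 ± 0.13. Msn was highest on cKO 2, at 10.13 against 7.22 to 8.34 on the other arrays, and without cKO 2 its difference was −0.16. The hepatocyte, erythroid and immune lists were also highest on cKO 2. So was a list of endothelial markers, at 8.46 against at most 8.0 elsewhere. The part of these lists in the level of Msn was not tested.

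Of 4 other myosins of the apical domain 1 fell and 1 rose. Myo1d fell by 0.56 ± 0.10 (limma adjusted p = 0.0162), with −0.55 on its other probe set, from 12.42, 12.33 and 12.43 to 11.97, 11.65 and 11.89. Myo1e rose by 0.59 ± 0.10 (limma adjusted p = 0.0134), from 9.65, 9.49 and 9.54 to 10.33, 10.02 and 10.11. Myo1d did not pass when any control was omitted, nor Myo1e when control 2 or control 3 was. Myo6, a motor toward the base of the microvillus, differed by −0.32 ± 0.095 and Myo1c by 0.54 ± 0.17, and neither passed.

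Of 7 genes of apical membrane traffic 3 fell and none rose. Rab8a, a GTPase of apical delivery, fell by 0.53 ± 0.077 (limma adjusted p = 0.00732), from 12.01, 11.9 and 12.07 to 11.43, 11.52 and 11.45. Stx3 and Myo5b, which encode a target-membrane syntaxin and the motor of recycling endosomes and are both mutated in microvillus inclusion disease, fell by 0.58 ± 0.14 and 0.37 ± 0.092 (limma adjusted p of 0.039 and 0.0473). Both of those calls were kept, with 1 array left out, only without cKO 1 (adjusted p up to 0.13 and 0.147). Stxbp2, the partner of Stx3, and Rab11a differed by −0.31 ± 0.081 and −0.40 ± 0.12, with groups that did not overlap, and did not pass.

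Of 6 other cadherin and immunoglobulin-domain genes of the brush border and enterocyte surface, 1 rose and 1 fell. Ceacam1, an immunoglobulin-domain adhesion gene as Tmigd1 is, rose by 1.09 ± 0.093 (2.12-fold, limma adjusted p = 0.001), from 12.32, 12.11 and 12.04 to 13.21, 13.24 and 13.28. Its relative Ceacam20 stood at 10.88, 10.9 and 10.86 on the controls and at 11.21, 10.65 and 10.57 on the arrays labelled cKO, a difference of −0.07 ± 0.17. There cKO 1 lay above every control and the others below. Igsf5 fell by 0.46 ± 0.11 (limma adjusted p = 0.0427), which did not pass when any array was omitted. Cdh17, the liver-intestine cadherin, differed by −0.16 ± 0.077 and did not pass. Among transcription factors known for brush border genes, Hnf4g fell by 0.45 ± 0.099 (limma adjusted p = 0.0314), a call kept, with 1 array left out, only without cKO 1. Hnf4a, Cdx1, Cdx2 and Srf differed by 0.0067 to 0.15 and did not pass.

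**Figure D4:**
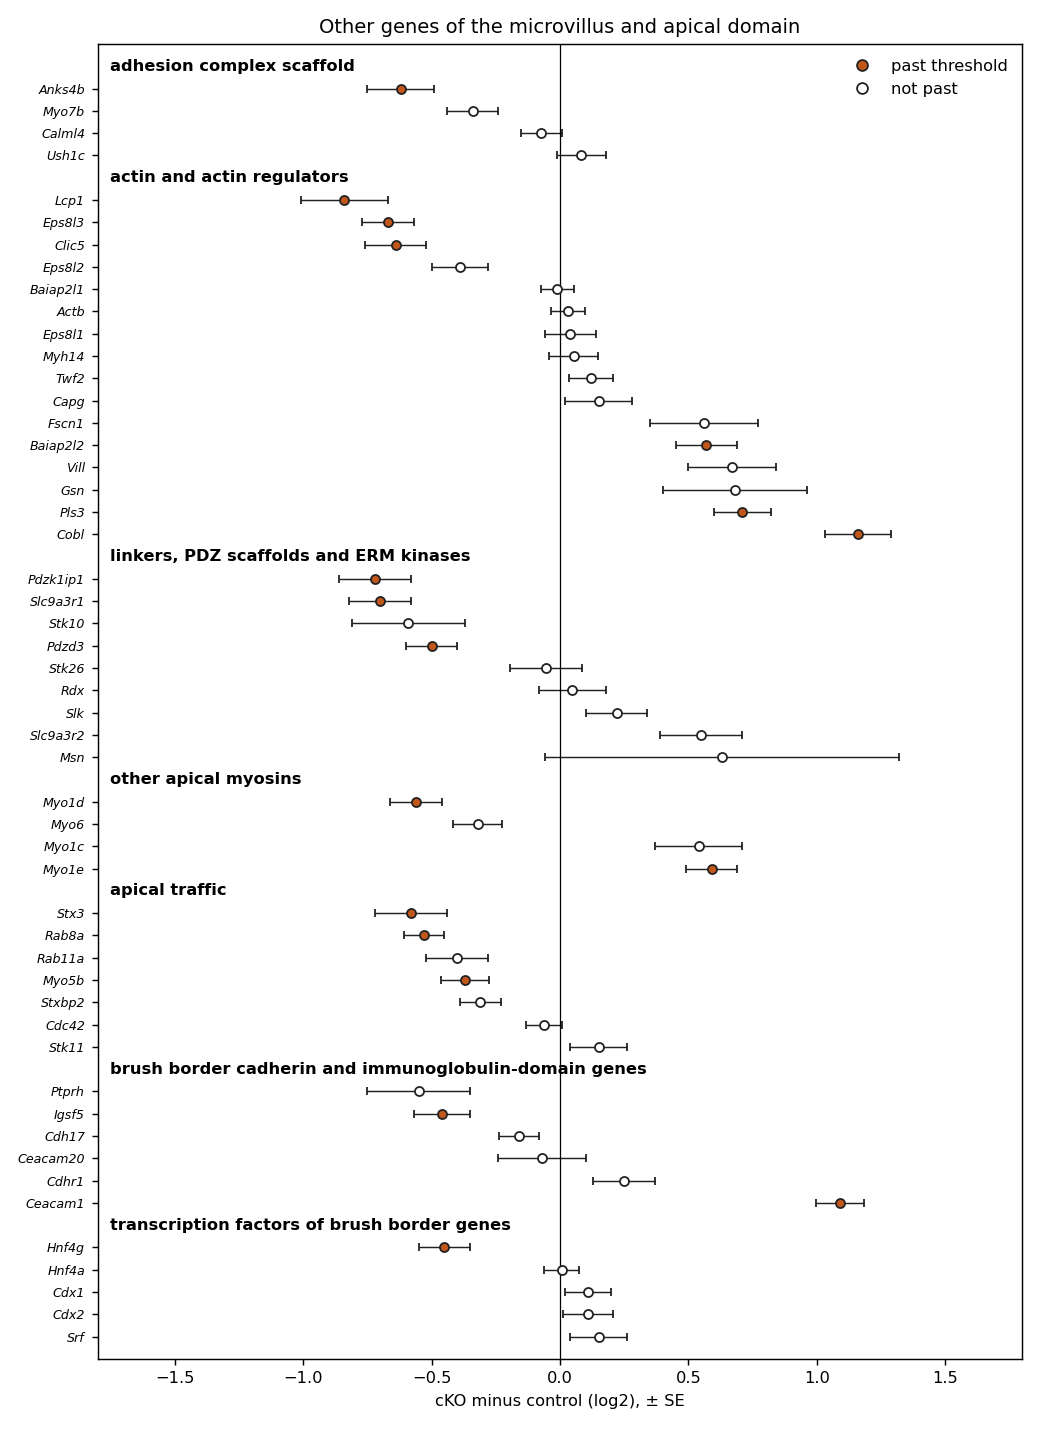
Difference between the groups (arrays labelled cKO minus control, log2, with SE) for the 51 other microvillus and apical genes, by function. Filled points passed the limma threshold, 13 to the left of 0 and 5 to the right, with Lcp1 (−0.84) and Cobl (1.16) at the ends.

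Clone-like, predicted, olfactory or vomeronasal receptor and small RNA names were left out of the rankings of similar genes given here. Outside these and the members, levels closest to Tmigd1 over the 6 arrays were those of Xpnpep2, an aminopeptidase (Pearson r = 0.9996), and Tshz2 (0.9995). Edn1, endothelin-1 (0.9987), Klhl13 (0.9984) and Cyp2j5, an epoxygenase (0.9981), followed. Such values over 2 well-separated groups of 3 arrays mainly restate that these genes were also higher on the arrays labelled cKO, by 1.34 (Tshz2) to 5.45 (Cyp2j5) on the log2 scale. All 5 were also highest, within that group, on cKO 1, as Tmigd1 was. That shared order largely follows from picking genes by their correlation with Tmigd1. For Vil1, whose groups overlap, the closest were Epsti1 (0.9990), Myo15b (0.9873), Egf (0.9859), Ccdc160 (0.9820) and Cysrt1 (0.9819). Their differences between the groups lay between −0.25 (Ccdc160) and −0.093 (Cysrt1), beside −0.11 for Vil1. On these 6 arrays each was highest on control 3 and lowest on cKO 2, as Vil1 was. This too largely follows from how they were picked.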

How the data were processed

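The values analysed are 1 log2 level per probe set and array, made by the authors with dChip and deposited per the series text for 35512 probe sets on 6 arrays. No dChip setting or normalization is given in the sources used here. That the scale is log2 was inferred from its span of 0 to 14.25. Probe sets were named from the platform annotation, in which 21789 have 1 gene symbol, and the one with the highest mean was kept per gene (19938 genes). Depth does not apply, and the number of arrays limits the precision. Detection calls were not used here. Levels were compared with limma 3.58.1 in R 4.3.3 (two-sided, no covariate, Benjamini-Hochberg over all genes, threshold 0.05), which was tested on simulated data.

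The members and gene lists were chosen with earlier results of these data known. The genes named are the members, the targeted genes, 8 set microvillus genes (Ush1c, Myo7b, Anks4b, Slc9a3r1, Actb, Actg1, Myo5b and Cdh17), and in each list the genes past the threshold with the smallest adjusted p, at most 4. Other genes, such as Lcp1 and Msn, were named after their values were seen. Promoter words and gene neighbours were added after seeing the data. Alternatives were quantile normalization, centring, log2(value + 32), a filter on dim genes, another variance model, a replicate block, the mean of a gene's probe sets, a covariate of hepatocyte and erythroid level, and arrays left out.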

Additional observations from a re-analysis of the deposited data

How the results depend on the processing

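With the replicate number as a block, 1449 genes passed in place of 2580, 1 member (Tmigd1) in place of 4, and 8 of the other microvillus genes in place of 18. The labels do not say whether the numbers pair the samples. Deviations of same-numbered arrays from their group means correlated, across genes, at −0.0153, −0.425 and −0.184. The highest value was that of control 2 with cKO 1 (0.357). Deviations within a group cancel out, so these correlations depend on each other and cannot decide whether the arrays were paired. With control 3 and cKO 2 both left out the 3 counts were 1586, 1 and 8. With 1 array left out they ran from 1482 to 2281, from 1 to 6 and from 5 to 17. Quantile normalization, centring, log2(value + 32), the mean of all probe sets, the covariate, the variance model and the filter on dim genes kept each count within 1.5 times. Of 480 changes recomputed for 32 genes, 0 reversed, 95 lost the threshold and 5 newly passed it. The median change over all genes stayed between −0.0283 and −0.00333. Signal over background is not known for these values.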

Other observations

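The genes next to Tmigd1 on its chromosome, in the order of the RefSeq table (GRCm38.p6), differed by less than it did, and in both directions. Of the 4 nearest protein-coding genes on each side, all 8 were measured. The closest on one side, Cpd, which encodes carboxypeptidase D, rose by 0.66 ± 0.11 (limma adjusted p = 0.0106), from 10.73, 10.5 and 10.53 on the controls to 11.31, 11.08 and 11.34 on the arrays labelled cKO. The closest on the other side, Blmh, differed by 0.23 ± 0.092 and did not pass. Next beyond it, Slc6a4, the serotonin transporter gene, fell by 1.42 ± 0.13 (limma adjusted p = 0.00129), from 10.26, 10.38 and 10.35 to 8.69, 9.17 and 8.87. The other 5 (Gosr1, Trarg1, Bhlha9, Nsrp1 and Efcab5) differed by −0.21 to 0.09 and did not pass.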
